A study of Mus musculus with 8 samples.

Results

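Visceral fat of mice on a high-fat diet was compared between animals with the TertCi construct at the p21 locus and animals with mCherry alone. The comparison holds 4 of the 8 libraries of the series, 2 against 2, chosen by their genotype and diet labels. The TertCi HFD group was p21+/mCherry-TertCi on High Fat diet (rep138 and rep140), and the mCherry HFD group was p21+/mCherry on the same diet (rep128 and rep129). Both groups therefore carry mCherry and a single unmodified p21 allele by their labels. Each library was made from the sorted nuclei of 1 mouse's snap-frozen visceral white adipose tissue, and RNA molecules were counted by unique molecular identifiers (UMIs). The other 4 libraries were mCherry on Standard diet (rep144 and rep146) and p21+/mCherry-Tert on High Fat diet (rep134 and rep136). They entered the fits to share the estimate of the spread, and also the filter on low counts, the scaling and the clustering of nuclei. The p21+/mCherry-Tert pair was also compared with TertCi HFD. The text that describes the series' design names another source, the stromal vascular fraction, and calls the control animals on this diet p21+/-; the sample labels were followed here.

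Tert encodes the catalytic subunit of telomerase, the enzyme that extends chromosome ends. Cdkn1a encodes p21, an inhibitor of cyclin-dependent kinases that p53 induces and that rises in senescent cells. What TertCi stands for is not spelled out in the labels; the name is commonly used for a catalytically inactive telomerase, which makes such mice a test of what the protein does apart from telomere synthesis. The construct is driven by the p21 promoter according to the design text, so it would be made where p21 is made. In obese visceral fat, adipocytes that outgrow their supply are surrounded by macrophages. These take up lipid and switch on lysosomal, lipid-binding and matrix-degrading genes (lipid-associated macrophages, marked by Trem2 and Gpnmb), while another population along vessels keeps Mrc1, Lyve1 and F13a1 (perivascular resident macrophages). New adipocytes come from fibroblast-like progenitors that express collagens and Pdgfra.

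UMI counts were summed per library over barcodes with at least 1000 UMIs and at most 5% mitochondrial UMIs. These were 21996 barcodes in rep128 and 4536 in rep129 of mCherry HFD, and 13728 in rep138 and 5142 in rep140 of TertCi HFD. The kept barcodes held 113644405, 14978034, 50630646 and 20468532 UMIs, with medians of 3655, 2178, 2413 and 2256 per barcode. Libraries rep128 and rep138, 1 of each group, thus held more barcodes than the upper end of the 5 to 10K nuclei that the labels say were loaded. At most 96 barcode sequences were shared by any pair of libraries. The ribosomal RNA repeat Rn18s-rs5 stood at 2562 and 5208 CPM (a gene’s UMI count scaled to a fixed library total) in mCherry HFD and at 35090 and 63420 in TertCi HFD, and its part in the results below was not tested. In all that follows, values in parentheses or lists run in the order rep128 and rep129, then rep138 and rep140. CPM are scaled by TMM unless called plain, and differences are TertCi HFD minus mCherry HFD on the log2 scale. A gene is said to have risen or fallen where edgeR's quasi-likelihood test gave an adjusted p under 0.05 (Benjamini-Hochberg over all genes tested). Each animal is 1 library, so a difference in a single value cannot reach an exact permutation p below 0.333 (two-sided), and no such p is given.

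The inserted locus left little trace. Tert was found at 390 and 58 UMIs (3.43 and 3.87 plain CPM) in the mCherry HFD libraries and at 122 and 52 UMIs (2.41 and 2.54) in the TertCi HFD libraries. The TertCi libraries were thus not the higher ones, and the difference in whole tissue was -0.13 (SE 0.29, edgeR adjusted p = 0.75). The mCherry feature gave 13 and 0 UMIs in mCherry HFD and 2 and 0 in TertCi HFD. A count of 0 allows up to 0.246 plain CPM in rep129 and 0.18 in rep140 (exact Poisson limits, 95%, counting error only). Whether the 3′ end of the construct can be counted by these libraries is not given in the sources used here, so neither feature checks the genotype labels. Cdkn1a stood at 9.89 and 7.86 CPM in mCherry HFD and at 5.85 and 4.25 in TertCi HFD. The groups did not overlap, and the difference of -0.81 did not pass the test (SE 0.35, edgeR adjusted p = 0.11).

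Nuclei fell into 37 clusters, which were grouped by marker genes. The makeup of the tissue differed between the groups. Adipocyte-like nuclei made up 0.496% and 0.661% of barcodes in mCherry HFD (109 and 30 nuclei) and 14.8% and 10.3% in TertCi HFD (2030 and 532 nuclei). Macrophage-like nuclei made up 56.0% and 48.6% against 17.4% and 22.9%. Progenitor-like nuclei made up 10.4% and 12.8% against 23.3% and 20.9%. Cycling nuclei, which express mitotic genes such as Mki67, made up 2.59% and 2.49% against 0.408% and 0.895%. They were cluster 19 alone, in which all 15 macrophage markers were also raised, and were counted apart from the macrophage-like class. In each of these classes the groups did not overlap.

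**Figure D1:**
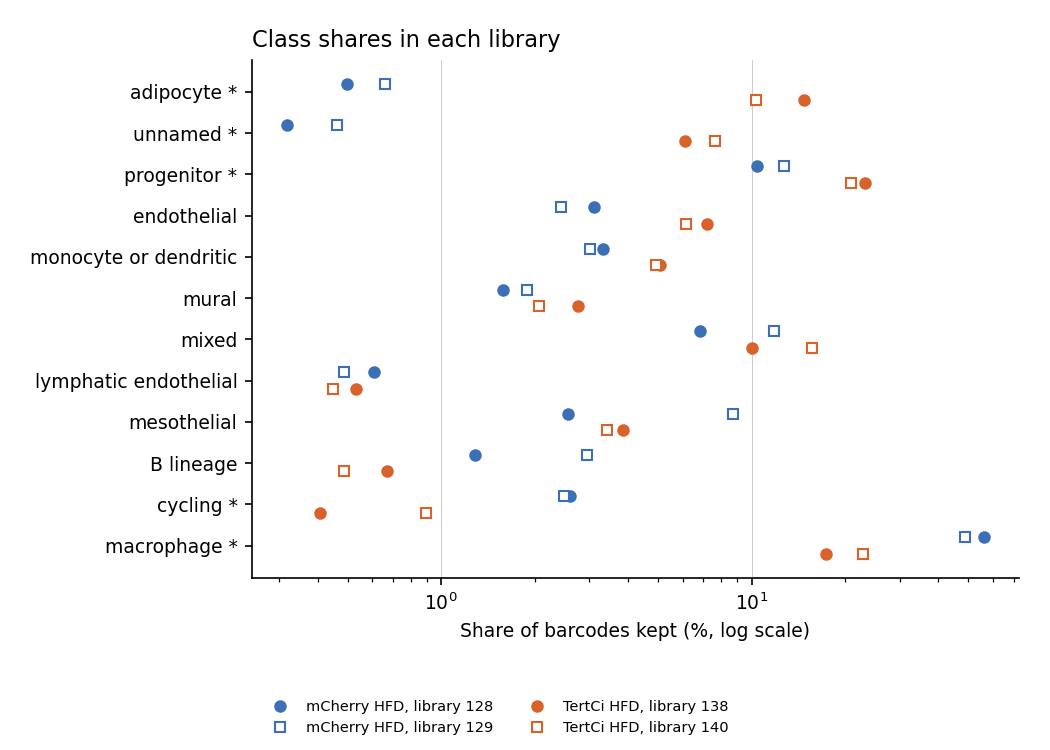
Share of each class of nuclei (% of barcodes kept, log axis) in the 4 libraries; each point is 1 library, coloured by group. Both TertCi HFD libraries lie above both mCherry HFD libraries for adipocyte-like nuclei (14.8% and 10.3% against 0.496% and 0.661%) and below them for macrophage-like nuclei (17.4% and 22.9% against 56.0% and 48.6%).

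The plot of class shares shows that 5 of 12 classes changed in edgeR's test on numbers of nuclei. The adipocyte-like share rose by 4.45 on the log2 scale (SE 0.85, adjusted p = 0.0096). The macrophage-like share fell by 1.38 (SE 0.32, adjusted p = 0.017), the cycling share fell by 1.99 (SE 0.55, adjusted p = 0.032) and the progenitor-like share rose by 0.93 (SE 0.30, adjusted p = 0.044). At 2000 UMIs the macrophage-like and cycling calls were lost (adjusted p = 0.10 each), as they were without rep138 (0.15 and 0.20). The progenitor-like call was lost without rep128 (adjusted p = 0.25), rep129 (0.11), rep138 (0.20), rep140 (0.12), rep144 (0.11) or rep146 (0.11), and with TMM across classes the difference was 0.45 (adjusted p = 0.46). The fifth was an unnamed class at 0.318% and 0.463% against 6.13% and 7.60% of barcodes. It was mostly cluster 8, led by the lectin gene Mgl2, the interleukin-33 receptor gene Il1rl1, Aoah and Ciita. By its markers macrophage scored first (9 raised) and monocyte or dendritic second (3 raised). It stayed unnamed because its leading genes held 0 macrophage markers and 1 marker of another class. The share of the unnamed class rose by 4.16 (SE 0.71, edgeR adjusted p = 0.0096). Cluster 8 is not counted in the macrophage-like share above. Endothelial-like nuclei stood at 3.12% and 2.43% against 7.16% and 6.15% (difference 1.26, SE 0.67, edgeR adjusted p = 0.18). B lineage nuclei stood at 1.29% and 2.95% against 0.670% and 0.486%, and monocyte-like or dendritic nuclei at 3.31% and 3.02% against 5.06% and 4.92%. Neither passed the test. Without rep128 or without rep129 no class passed, while the adipocyte-like difference was then 4.25 (adjusted p = 0.10) or 4.66 (adjusted p = 0.058); without rep138, 2 classes passed.

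Shares of barcodes add up to a whole, so a higher share of 1 class lowers the rest, and they do not give numbers of cells per gram of fat. Flow sorting of nuclei and the UMI minimum also bear on who is counted. Beside the adipocyte-like clusters, 3 clusters with adipocyte genes and those of another class were left unnamed as mixed. They held 1.18% and 2.03% of barcodes in mCherry HFD and 6.49% and 11.6% in TertCi HFD. Mixed clusters 13 and 24, in which progenitor scored first and second, went the other way. They held 4.22% and 8.47% in mCherry HFD and 1.85% and 2.14% in TertCi HFD. Mixed cluster 18, in which progenitor also scored second, held 1.42% and 1.32% against 1.67% and 1.91%. Clusters 13, 18 and 24 are not counted in the progenitor-like share, and the difference in that share with them added was not tested. The adipocyte markers summed over all barcodes to 4032 to 4296 plain CPM in mCherry HFD and to 11737 to 14019 in TertCi HFD. In near-empty droplets (100 to 300 UMIs), which hold free RNA, the same sum was 4804 to 5198 against 14732 to 15294. The macrophage markers summed to 5422 to 5883 against 2562 to 2881 over all barcodes and to 6881 to 7886 against 2646 to 2823 in near-empty droplets. In these 2 lists the free RNA differed in the same direction as the shares of nuclei. It did not in every list: the progenitor markers in near-empty droplets summed to 5613 to 5706 against 2993 to 3127 plain CPM, while the progenitor-like share was the higher in TertCi HFD.

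Across the whole tissue, 7215 of 22678 genes tested (31.8%) changed, 3095 up (13.6%) and 4120 down (18.2%). The highest rise among the genes named by fold was that of Adrb3. This gene, which encodes the β3-adrenergic receptor through which noradrenaline starts lipolysis, stood at 9.05 and 11.5 CPM in mCherry HFD and at 265 and 298 in TertCi HFD. That is a difference of 4.79 (SE 0.31, edgeR adjusted p = 0.00027). Pck1, whose enzyme supplies glycerol phosphate for triglyceride synthesis, stood at 11.1 and 9.36 against 199 and 132 CPM, and Mageb18 at 173 and 145.6 against 3127 and 1969. In all 3 genes both TertCi libraries lay far above both mCherry libraries. With rep128, rep129, rep138 or rep140 left out in turn, the number of changed genes was 1681, 3800, 1929 or 1919, and Adrb3, Pck1 and Mageb18 passed in each of the 8 fits that left out 1 library. When libraries were scaled by their totals without TMM, the median difference over all genes moved from -0.12 to -0.55, and 1462 genes rose while 5741 fell.

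Gene lists of the adipocyte's main functions rose in the whole tissue. Of 21 genes of triglyceride synthesis and the lipid droplet, 17 rose and 1 fell, with a median of 1.95 against -0.12 over all genes tested. Cidec, a protein that fuses lipid droplets into one, stood at 72.2 and 70.3 against 906 and 672 CPM (3.47, SE 0.23, edgeR adjusted p = 0.00029). The gene that fell was Plin2, a coat protein of small droplets that macrophages also express, at 539 and 472 against 122 and 137.6 CPM (-1.96, SE 0.24, edgeR adjusted p = 0.0019). Of 19 genes of lipolysis and β-adrenergic signalling, 14 rose and 0 fell (median 1.76), and of 16 lipogenesis genes 8 rose and 1 fell (median 1.67). Leaving out rep128, rep129, rep138 or rep140 gave 9, 10, 13 or 11 risen triglyceride genes and 11, 12, 12 or 11 risen lipolysis genes.

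Secreted and regulatory genes of the adipocyte followed the same course. Of 12 adipokines, 7 rose and 2 fell (median 1.76). Adipoq, which encodes the insulin-sensitising hormone adiponectin, stood at 8.73 and 9.19 against 84.6 and 64.3 CPM, and Nrg4, a secreted growth factor of fat, at 31.6 and 28.7 against 326 and 366 CPM. The respective differences were 3.06 (SE 0.28, edgeR adjusted p = 0.00068) and 3.52 (SE 0.26, edgeR adjusted p = 0.00035). Of 21 adipogenic transcription factors, 15 rose and 0 fell (median 1.12). Ebf1, an early regulator of adipocyte fate that is also expressed in progenitors, stood at 1280 and 1405 against 4999 and 4510 CPM (1.82, SE 0.22, edgeR adjusted p = 0.0018). Without rep128, rep129, rep138 or rep140 the count of risen factors was 7, 11, 12 or 6.

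Of 21 genes of insulin signalling and glucose uptake, 12 rose and 2 fell (median 1.11). Ghr, the growth hormone receptor, stood at 701 and 1161 against 8834 and 6978 CPM (3.09, SE 0.42, edgeR adjusted p = 0.0029). Npr3, the clearance receptor for natriuretic peptides, stood at 98.3 and 109 against 1113 and 1083 CPM. Both genes separated the groups with no overlap. The growth hormone and STAT5 list as a whole had 4 risen and 1 fallen of 12, and its median of 0.35 turned to -0.08 with library totals.

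Genes of lipid-associated macrophages and lysosomes were among those that fell. Of 31 genes of lipid-associated macrophages, 25 fell and 0 rose, with a median of -1.96. Gpnmb, a membrane glycoprotein of lipid-laden macrophages, stood at 743 and 666 against 89.6 and 90.9 CPM (-2.96, SE 0.18, edgeR adjusted p = 0.00027). Atp6v0d2, a subunit of the vacuolar proton pump that acidifies lysosomes, stood at 575 and 573 against 97.1 and 107 CPM (-2.49, SE 0.20, edgeR adjusted p = 0.00045). St18, a zinc-finger factor, stood at 613 and 498 against 110 and 97.03 CPM, and Lgals3, the lectin galectin-3, at 575 and 519 against 114 and 119 CPM. Within each of these 4 genes the libraries of a group lay close together and far from the other group. Cd36 and Lpl, which adipocytes share with macrophages, did not pass: Cd36 stood at 1509 and 1415 against 1371 and 1275 CPM (edgeR adjusted p = 0.54), and Lpl at 718 and 647 against 512 and 528 CPM (edgeR adjusted p = 0.073). With library totals Lpl passed as lower (-0.82, adjusted p = 0.022), as it did with only the 4 libraries compared (-0.35, adjusted p = 0.035).

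Of 36 lysosome genes, 22 fell and 0 rose (median -0.99), and of 20 monocyte chemokines and receptors 10 fell and 0 rose (median -1.15). With rep128, rep129, rep138 or rep140 left out in turn, 20, 23, 21 or 19 lipid-associated genes and 17, 19, 16 or 17 lysosome genes fell. C5ar1, the receptor for the complement fragment C5a, stood at 114 and 109 against 23.8 and 21.1 CPM (-2.31, SE 0.35, edgeR adjusted p = 0.0040). Of 38 cell cycle genes, 22 fell and 1 rose (median -1.18); Brca1, a DNA repair gene induced in S phase, stood at 25.8 and 22.1 against 5.31 and 5.09 CPM. The cell cycle count was the least steady of these, at 6, 8, 5 or 7 without rep128, rep129, rep138 or rep140. Hmga2, a chromatin protein, stood at 72.2 and 68.7 against 3.34 and 2.63 CPM (-4.55, SE 0.25, edgeR adjusted p = 0.00025). It was among the leading genes of macrophage-like cluster 9. That cluster held 11.4% and 5.60% of barcodes in mCherry HFD and 0.379% and 0.506% in TertCi HFD.

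Part of the largest falls came from 1 animal. Lipc stood at 113 CPM in rep128 and at 2.38 in rep129, against 1.05 and 1.17 in TertCi HFD. Its difference of -5.72 (edgeR adjusted p = 0.027) became -1.11 without rep128 (adjusted p = 0.20). Zfp804b behaved alike, at 157 and 9.97 against 6.26 and 1.62 CPM. Clusters held by a single library made up 2.91% of the barcodes of rep128, 0.0441% of rep129, 0 of rep138 and 0.0778% of rep140; without them the difference was -3.60 for Lipc and -2.38 for Zfp804b. Taco1, a mitochondrial translation factor, stood at 69.1 and 155 against 1574 and 2680 CPM (4.25, SE 1.00, edgeR adjusted p = 0.019) and lost its call without rep128 (adjusted p = 0.12), rep129 (0.072), rep138 (0.065) or rep140 (0.11).

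**Figure D2:**
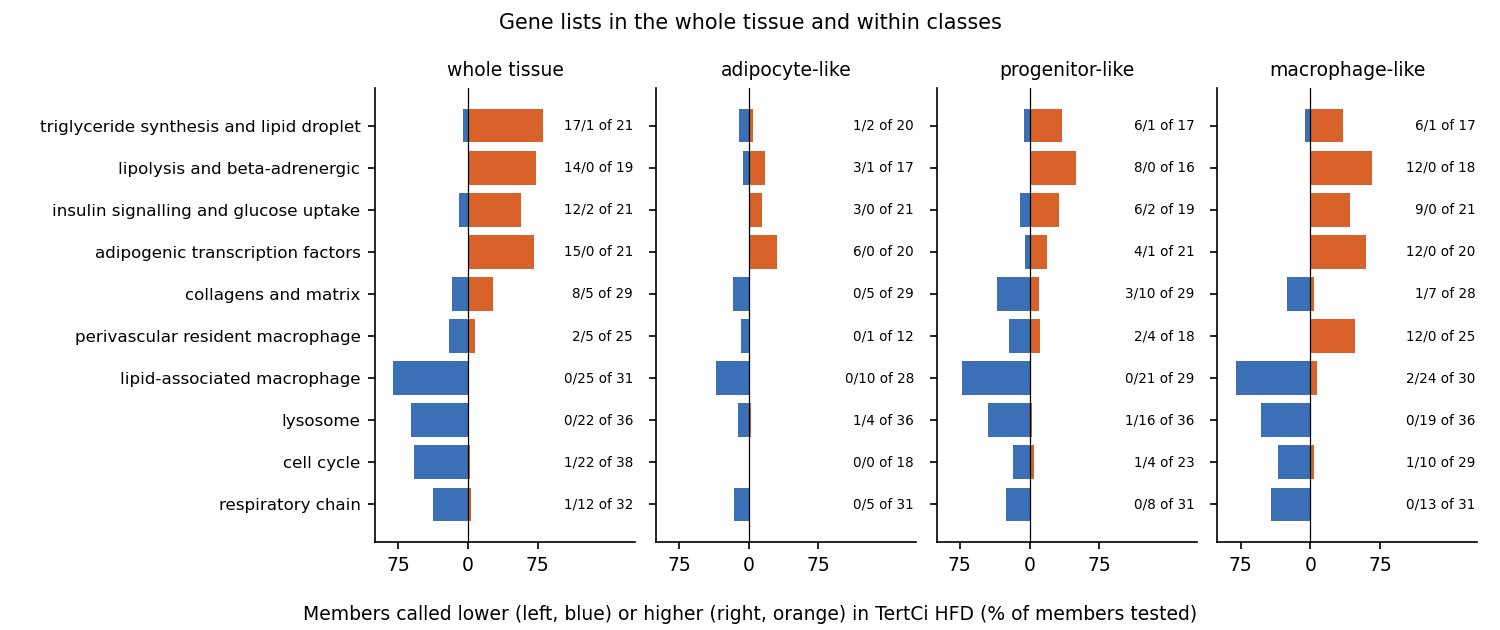
Members of 10 gene lists that fell (blue, to the left) or rose (orange, to the right) in TertCi HFD, as a percentage of the members tested, in the whole tissue and in 3 classes; the figures at the right of each panel give risen/fallen of tested. Triglyceride genes have 17 risen of 21 in the whole tissue and 1 of 20 in adipocyte-like nuclei, while lipid-associated macrophage genes have 25 fallen of 31 in the whole tissue and 24 of 30 in macrophage-like nuclei.

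The plot of gene lists by class separates what the whole tissue mixes. In whole-tissue sums, fewer cells of a type and less RNA per cell cannot be told apart. The difference of each gene on the plain CPM scale was therefore divided into the part from the classes' shares of UMIs and the part from levels within classes, averaged over the 4 pairs of libraries, as a description without a test. Among the genes that rose in the whole tissue, the median part from composition was 42.2%; composition was the larger part in 1164 of 3074 genes (37.9%). Among those that fell it was 12.0%, and composition was larger in 160 of 4120 genes (3.88%). With the 37 clusters in place of classes, the medians were 52.4% and 17.6%, because part of the change within a class lies between its clusters. Composition was then the larger part in 1610 of 3074 genes that rose (52.4%) and in 521 of 4120 that fell (12.6%). Free RNA in each droplet counts as a level within the class. So does a shift of scale: with library totals the median difference over all genes was -0.55 in the whole tissue, against -0.12 with TMM. Within adipocyte-like, progenitor-like and macrophage-like nuclei it was -0.40, -0.31 and -0.26 with library totals. Such a shift adds to the part within classes for falls and takes from it for rises. Its size in these medians was not tested.

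Single genes show the range of these parts. For Adrb3, 33.6% of the rise came from class composition and 46.0% from cluster composition. For Ghr the parts were 49.8% and 69.5%, and for Cidec 47.9% and 66.3%. For Gpnmb they were 28.1% and 52.1% of the fall, and for Atp6v0d2 36.1% and 64.8%. Col3a1, a fibrillar collagen, ran against its composition: the shares of all classes together gave a part of 49.0 plain CPM and levels within classes a part of -677. F13a1, the factor XIII subunit that marks resident macrophages, had parts of -688 plain CPM from composition and 828 within classes. With clusters in place of classes the parts were 155 and -15.1, so the sign of both parts depended on the unit.

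**Figure D3:**
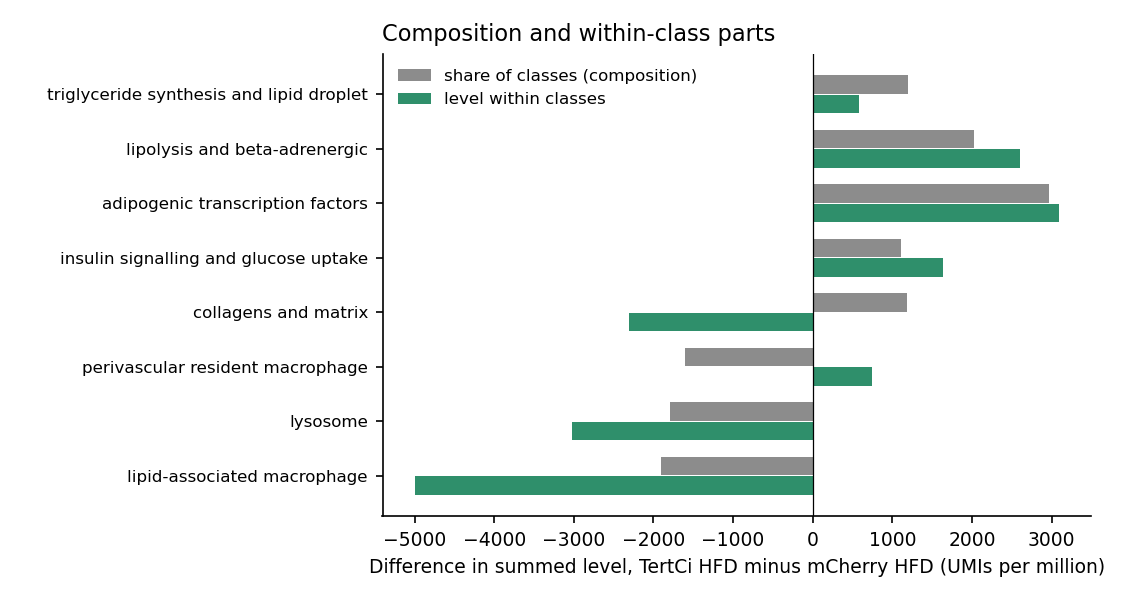
Difference in the summed level of 8 gene lists (TertCi HFD minus mCherry HFD, plain CPM), divided into the part from class shares (grey) and the part from levels within classes (green). Both parts are negative for lipid-associated macrophage genes (-1901 and -4999, or -3032 and -3868 with clusters in place of classes). They have opposite signs for collagens (1179 and -2307) and perivascular macrophage genes (-1605 and 748, but -139 and -718 with clusters in place of classes). Mixed and doublet barcodes count as classes.

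The plot of composition and within-class parts gives these as sums over lists. Lipid-associated macrophage genes summed to 10862 plain CPM in mCherry HFD and 3962 in TertCi HFD. The part from composition was -1901 and that from levels within classes -4999, or -3032 and -3868 with clusters in place of classes. Triglyceride genes gained 1191 from composition and 582 within classes, or 1663 and 109.95 with clusters in place of classes. The part from composition is a sum over all classes and was not divided among them. Collagen and matrix genes had a part of 1179 from composition and of -2307 within classes, or 695 and -1823 with clusters. For the perivascular list the parts were -1605 and 748 with classes and -139 and -718 with clusters, so the sign of the part within depended on the unit.

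Macrophage-like nuclei numbered 12312 and 2206 in mCherry HFD and 2382 and 1176 in TertCi HFD. In them 4375 of 14425 genes (30.3%) changed, 1791 up (12.4%) and 2584 down (17.9%). Without rep128, rep138 or rep140 the number was 1664, 1747 or 2456. Of 30 lipid-associated macrophage genes tested, 24 fell and 2 rose, with a median of -1.06 against -0.06 over all genes tested. Of the 24 that fell, 1 reached 2 times its level in near-empty droplets in both mCherry HFD libraries. Without rep128, rep129, rep138 or rep140 the fallen numbered 15, 19, 15 or 16, and 17 fell after free RNA was subtracted, when 10.5% of all genes tested rose and 12.8% fell. The macrophage markers summed to 8730 to 8991 plain CPM in these nuclei of mCherry HFD and to 8975 to 10823 in TertCi HFD. Of the 15 markers, 3 rose and 7 fell, so the sum hides changes in both directions.

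The lipid-handling genes of this list fell as follows. Gpnmb stood at 1309 and 1166 against 396 and 412 CPM (-1.62, SE 0.21, edgeR adjusted p = 0.00029). Lpl, the lipase that releases fatty acids from circulating triglyceride, stood at 1111 and 1020 against 479 and 419 CPM (-1.25, SE 0.18, edgeR adjusted p = 0.00055). Plin2 stood at 930 and 840 against 333 and 317 CPM (-1.45, SE 0.23, edgeR adjusted p = 0.00090). The fatty acid carrier Fabp5 had 43.8 and 39.8 against 5.69 and 1.83 CPM (-3.27, SE 0.43, edgeR adjusted p = 0.00034). In each of the 4 genes both mCherry libraries lay above both TertCi libraries, and each passed in all 8 fits that left out 1 library. Cd36, the fatty acid transporter, did not pass at 2364 and 2320 against 2088 and 1637 CPM.

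Receptor and lysosome genes were among those that fell. Trem2, the lipid receptor that drives this state, and Ctsl, a lysosomal protease, were chosen for naming after their values were seen. Trem2 stood at 111 and 94.3 against 27.6 and 26.9 CPM (-1.91, SE 0.18, edgeR adjusted p = 4.4e-05). Ctsl stood at 338 and 321 against 42.4 and 42.9 CPM (-2.95, SE 0.17, edgeR adjusted p = 3.4e-06). Both were at a lower level in macrophage-like nuclei than in near-empty droplets (0.45 and 0.29 of it), and both passed after free RNA was subtracted (-1.53 and -2.39). Of 36 lysosome genes, 19 fell and 0 rose (median -0.63), and 13 fell after the subtraction. Within cluster 1, a macrophage-like cluster well filled in each library compared, 10 of 36 fell and 2 rose, beside 11.8% and 8.27% of all genes. Cluster 3 held 55 and 31 nuclei in mCherry HFD and 1349 and 698 in TertCi HFD. Within it 1 of 33 fell, beside 1.42% of all genes (median -0.24 against 0.11 over all genes tested). With rep128, rep129, rep138 or rep140 left out in turn, the count was 12, 15, 12 or 13. The 2 members of the lipid-associated list that rose were Myo5a, a vesicle motor, at 898 and 886 against 1510 and 1144 CPM, and Colec12, a scavenger receptor, at 117 and 127 against 336 and 253 CPM. Colec12 passed in all 8 fits with 1 library left out and within cluster 3 (1.21, edgeR adjusted p = 0.0071). Within cluster 1 its difference was -0.18 (adjusted p = 0.70). Myo5a passed in neither cluster 1 (0.26) nor cluster 3 (0.40) and did not pass without rep128 (adjusted p = 0.16), rep129 (0.15) or rep138 (0.35), or with library totals or DESeq2.

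Genes of perivascular resident macrophages rose in the same nuclei. Of 25 tested, 12 rose and 0 fell (median 0.72), and 14 rose after free RNA was subtracted. F13a1 stood at 1103 and 1270 against 5180 and 4053 CPM (1.96, SE 0.23, edgeR adjusted p = 0.00014). Mrc1, the mannose receptor CD206, stood at 957 and 1111 against 1746 and 1916 CPM (0.82, SE 0.17, edgeR adjusted p = 0.0036; 0.061 without rep128). Cd163, the haemoglobin scavenger receptor, stood at 166 and 122 against 608 and 428 CPM (1.84, SE 0.36, edgeR adjusted p = 0.0078). Maf, a transcription factor of resident macrophages, stood at 370 and 343 against 760 and 601 CPM (0.93, SE 0.18, edgeR adjusted p = 0.0026; 0.054 without rep138). In all 4 genes the TertCi libraries were the higher pair with no overlap. Selenop, at 621 and 470 against 836 and 563 CPM, overlapped between the groups, and Igf1, at 424 and 490 against 520 and 789 CPM, did not pass (edgeR adjusted p = 0.078). Igf1 passed after free RNA was subtracted (0.60, adjusted p = 0.045) and within cluster 3 (0.89, adjusted p = 0.034), and differed by -0.42 within cluster 1.

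**Figure D4:**
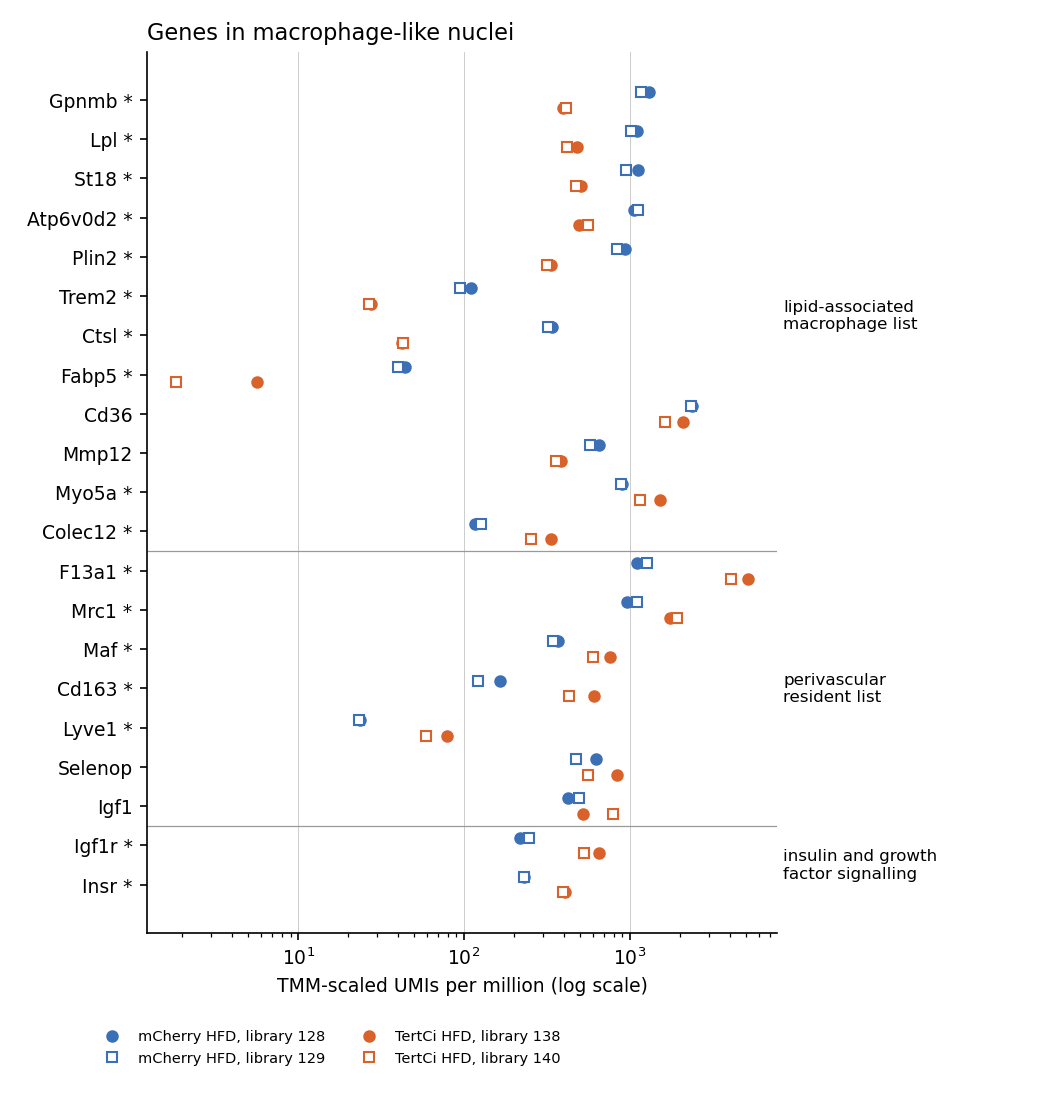
Levels in macrophage-like nuclei (TMM-scaled CPM, log axis) of genes of the lipid-associated, perivascular and hormone-signalling lists; each point is 1 library, and an asterisk marks an edgeR adjusted p under 0.05. The mCherry HFD libraries are the higher pair for Gpnmb (1309 and 1166 against 396 and 412) and the lower pair for F13a1 (1103 and 1270 against 5180 and 4053).

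The plot of macrophage genes by library averages over clusters that the 2 groups fill differently. Clusters 2, 9 and 15 held 71.2% and 55.7% of macrophage-like nuclei in mCherry HFD and 9.78% and 7.40% in TertCi HFD. Cluster 3 held 0.447% and 1.41% against 56.6% and 59.4%. Cluster 1 held 28.3% and 42.5% against 33% and 32.9% and was well filled in each of the 4 libraries. A fit within cluster 1 alone (3485, 937, 786 and 387 nuclei) was added after the data were seen; the cluster was drawn using these same genes, so its levels are not free of that choice. In it 2626 of 13067 genes (20.1%) changed, 8.27% up and 11.8% down. Of 30 genes of the lipid-associated list 11 fell and 2 rose there (median -0.35 against -0.05 over all genes tested). Of 17 genes of the perivascular list 7 fell and 0 rose (median -0.80).

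Within cluster 1, the genes that fell included Trem2 (-1.11, edgeR adjusted p = 0.00098), Ctsl (-2.71, adjusted p = 5.9e-06), Fabp5 (-2.71, adjusted p = 0.0026), Gpnmb (-0.47, adjusted p = 0.027) and Lpl (-0.47, adjusted p = 0.027). Plin2 (-1.01, edgeR adjusted p = 0.13), St18 (-0.17) and Atp6v0d2 (-0.11), which fell in the class as a whole, did not pass there. F13a1 differed by 0.74 (edgeR adjusted p = 0.060) and Mrc1 by -0.33, and Selenop fell there (-1.35, adjusted p = 6.8e-05). The perivascular list thus had 12 risen genes over the class and 7 fallen genes within this cluster. In cluster 3, with 55 and 31 nuclei in mCherry HFD, 293 of 10015 genes (2.93%) changed, 1.51% up and 1.42% down. Of 28 lipid-associated genes 8 fell and 1 rose there, and of 25 perivascular genes 1 rose and 1 fell. Those that fell included Ctsl (-2.36, edgeR adjusted p = 0.00037), Mmp12 (-2.55, 0.0016), Gpnmb (-2.58, 0.0018), Trem2 (-2.40, 0.019) and Fabp5 (-4.70, 0.022). F13a1 differed by -0.04. Lpl (-0.41, edgeR adjusted p = 0.55), Plin2 (-0.88, 0.063), Atp6v0d2 (-1.19, 0.17) and St18 (0.17, 0.87) did not pass there. The difference between the whole class and its clusters was not tested.

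In macrophage-like nuclei 9 of 21 genes of insulin signalling and glucose uptake rose and 0 fell (median 0.70). After free RNA was subtracted 8 of 18 rose, beside 10.5% of all genes. Within cluster 1, 8 of 20 rose and 1 fell, beside 8.27% and 11.8% of all genes. Within cluster 3, which held most macrophage-like nuclei of TertCi HFD, 1 of 18 rose, beside 1.51% of all genes. The list's median there was 0.40 against 0.11 over all genes tested. Of 10 genes of the growth hormone and STAT5 list 2 rose and 0 fell over the class, beside 12.4% and 17.9% of all genes. Igf1r, the receptor for insulin-like growth factor 1, stood at 216 and 245 against 654 and 526 CPM (1.36, SE 0.16, edgeR adjusted p = 0.00017), and Insr, the insulin receptor, at 231 and 230 against 404 and 392 CPM (0.79, SE 0.15, edgeR adjusted p = 0.0022). Both receptors passed in all 8 fits with 1 library left out and within cluster 1 (0.82 and 0.48); in cluster 3 Igf1r passed (0.80) and Insr did not (0.62, adjusted p = 0.15). Pde4d, a phosphodiesterase that breaks down cyclic AMP, stood at 237 and 261 against 747 and 1048 CPM; it did not pass within cluster 1 (0.47, edgeR adjusted p = 0.069). Prkar2b, a regulatory subunit of protein kinase A, stood at 38.5 and 46.4 against 274 and 239 CPM. Prkar2b and Nfia, a nuclear factor of adipocytes (331 and 402 against 936 and 915 CPM), were lower in these nuclei than in near-empty droplets (0.23 and 0.42 of that level). They passed after free RNA was subtracted, at 2.08 and 1.26. Of 20 adipogenic transcription factors, 12 rose in these nuclei and 6 after the subtraction. The 15 adipocyte markers summed to 3538 to 3623 plain CPM in macrophage-like nuclei of mCherry HFD and 3392 to 4296 in TertCi HFD. This sum includes Cd36, which macrophages share, so it does not measure adipocyte RNA in these nuclei. Of the 14 adipocyte markers tested in these nuclei 9 rose and 0 fell (median 1.38). The 8 adipocyte markers by which the subtraction was scaled stood at 54.1 and 87.5 against 272 and 227 plain CPM in macrophage-like nuclei, so adipocyte RNA moved with the group beside the rises of the insulin and adipogenic lists.

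Of 23 inflammation genes tested in macrophage-like nuclei, 1 rose and 5 fell, beside 12.4% and 17.9% of all genes. After free RNA was subtracted 2 of 21 rose and 1 fell, and with DESeq2 1 rose and 1 fell. Il6ra, the interleukin-6 receptor, stood at 228 and 192 against 395 and 431 CPM (0.97, SE 0.16, edgeR adjusted p = 0.00095). Il1rn, the antagonist of interleukin-1, stood at 21.9 and 18.6 against 3.62 and 5.48 CPM (-2.25, SE 0.32, edgeR adjusted p = 0.00044). The chemokine receptors Ccr2 and Cx3cr1, which guide monocytes into tissue, fell: Ccr2 stood at 82.5 and 63.1 against 40.7 and 30.6 CPM, and Cx3cr1 at 19.1 and 21.6 against 6.20 and 5.02 CPM. Ccr2 lost its call without rep128 (edgeR adjusted p = 0.086) or rep140 (0.058). Within cluster 1 none of these 4 genes passed: Il6ra differed by 0.38 (edgeR adjusted p = 0.12), Il1rn by -0.33 (0.63), Ccr2 by -0.33 (0.45) and Cx3cr1 by -1.04 (0.12). Of 16 monocyte chemokines and receptors tested in these nuclei, 5 fell and 1 rose. Angpt2, an antagonist of vessel stabilisation, stood at 52.1 and 49.8 against 8.10 and 1.37 CPM (-3.16, SE 0.53, edgeR adjusted p = 0.0025). C5ar1 stood at 203 and 204 against 97.7 and 78.5 CPM (-1.20, SE 0.22, edgeR adjusted p = 0.0022).

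The genes with the largest falls in macrophage-like nuclei by fold were nearly all predicted genes without a known function. The largest rises included genes of adipocytes. Trhde stood at 1.36 and 3.15 against 33.3 and 51.6 CPM and Mageb18 at 15.1 and 31.4 against 483 and 238 CPM. In these nuclei the genes reached 0.11 and 0.10 of their level in near-empty droplets, and neither had enough counts for a test after free RNA was subtracted.

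Progenitor-like nuclei numbered 2290 and 579 in mCherry HFD and 3196 and 1075 in TertCi HFD. In them 3062 of 14475 genes (21.2%) changed, 1048 up (7.24%) and 2014 down (13.9%). Without rep128, rep129, rep138 or rep140 the number was 651, 1577, 1220 or 1411. Of 29 collagen and matrix genes, 10 fell and 3 rose (median -0.36 against -0.06 over all genes tested). After free RNA was subtracted 7 fell and 3 rose. Of the 10 that fell, 2 reached 2 times their level in near-empty droplets in both mCherry HFD libraries. Chains of fibrillar collagen were among those that fell, and the risen genes encode chains of basement membrane and beaded-filament collagens. With rep128, rep129, rep138 or rep140 left out in turn, the fallen numbered 5, 8, 6 or 7.

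Col3a1, which forms fibrils with collagen I, stood at 2136 and 2058 against 728 and 993 CPM (-1.29, SE 0.21, edgeR adjusted p = 0.0017). Col1a2 stood at 794 and 621 against 309 and 349 CPM (-1.11, SE 0.18, edgeR adjusted p = 0.0014), and Postn, the matrix protein periostin that rises in fibrosis, at 503 and 425 against 103 and 204 CPM (-1.62, SE 0.28, edgeR adjusted p = 0.0036; 0.051 without rep128). Fn1, fibronectin, stood at 1087 and 934 against 361 and 543 CPM (-1.17, SE 0.32, edgeR adjusted p = 0.034). In these 4 genes the mCherry libraries were the higher pair with no overlap. After free RNA was subtracted Fn1 did not pass (-1.14, edgeR adjusted p = 0.060). Fn1 kept its call in 3 of the 8 fits that left out 1 library, losing it without rep128 (adjusted p = 0.21), rep129 (0.096), rep138 (0.17), rep144 (0.089) or rep146 (0.084). Fbn1, the microfibril protein fibrillin-1, was the most abundant member that did not pass, at 2785 and 2782 against 2285 and 2109 CPM.

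The 3 collagens that rose were Col6a6, Col4a4 and Col4a3. Col6a6, a beaded-filament chain, stood at 130 and 163 against 342 and 308 CPM (1.16, SE 0.17, edgeR adjusted p = 0.00087). Col4a4 stood at 39.8 and 29.5 against 99.8 and 99.6 CPM (1.48, SE 0.19, edgeR adjusted p = 0.00041). Col4a3, which pairs with Col4a4 in a basement membrane network, stood at 27.99 and 15.7 against 58.5 and 57.7 CPM (1.31, SE 0.27, edgeR adjusted p = 0.0049). The TertCi libraries were the higher pair in each, all 3 passed in all 8 fits with 1 library left out, and their levels were 3.4 to 5.1 times those in near-empty droplets.

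**Figure D5:**
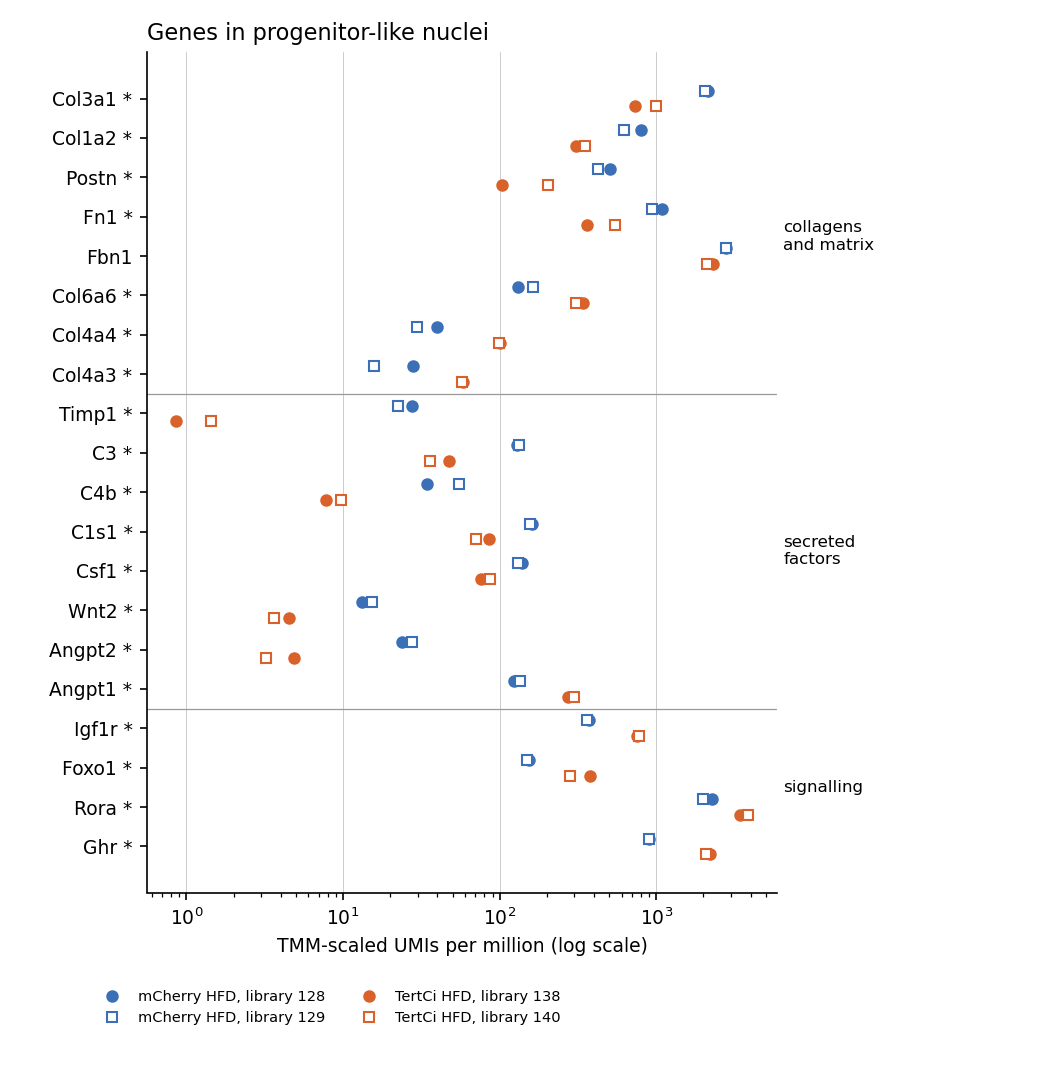
Levels in progenitor-like nuclei (TMM-scaled CPM, log axis) of matrix, complement and growth factor genes; each point is 1 library, and an asterisk marks an edgeR adjusted p under 0.05. The mCherry HFD libraries are the higher pair for Col3a1 (2136 and 2058 against 728 and 993) and the lower pair for Igf1r (370 and 361 against 755 and 775).

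The plot of progenitor genes by library also shows secreted proteins. Timp1, an inhibitor of matrix metalloproteases, stood at 27.5 and 22.4 against 0.854 and 1.44 CPM (-4.59, SE 0.41, edgeR adjusted p = 6.8e-05). Its level was 0.40 of that in near-empty droplets, and it passed after free RNA was subtracted (-4.30, adjusted p = 0.00063). Of 20 complement genes, 11 fell and 0 rose (median -1.07), and 3 of the 9 still testable fell after the subtraction. C4b stood at 34.2 and 55.4 against 7.81 and 9.74 CPM (-2.34, SE 0.33, edgeR adjusted p = 0.00084), and C3, the central complement component, at 128.8 and 133 against 47.2 and 35.7 CPM (-1.64, SE 0.30, edgeR adjusted p = 0.0051; 0.065 without rep128). Without rep128, rep129, rep138 or rep140 6, 8, 9 or 8 complement genes fell. Csf1, the growth factor on which macrophages depend, stood at 140 and 130 against 75.7 and 87.3 CPM (-0.74, SE 0.18, edgeR adjusted p = 0.015). It lost its call without rep128 (adjusted p = 0.16), rep129 (0.064) or rep138 (0.13).

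Of 19 insulin signalling genes in progenitor-like nuclei, 6 rose and 2 fell, or 3 and 2 after free RNA was subtracted. Adipocyte markers moved with the group in these nuclei, where 8 of 14 rose (median 1.74), and their part in the insulin count was not tested. Of 11 genes of the growth hormone and STAT5 list, 2 rose and 3 fell (median -0.11). Igf1r stood at 370 and 361 against 755 and 775 CPM (1.06, SE 0.15, edgeR adjusted p = 0.00078). Foxo1, a transcription factor held back by insulin signalling, stood at 154 and 150 against 380 and 283 CPM (1.13, SE 0.20, edgeR adjusted p = 0.0025). Rora, a nuclear receptor, stood at 2251 and 1988 against 3432 and 3868 CPM; it lost its call without rep128, rep129 or rep140 (edgeR adjusted p = 0.058, 0.071 and 0.067). Ghr stood at 901 and 903 against 2217 and 2082 CPM (1.25, SE 0.19, edgeR adjusted p = 0.00095), at 0.25 of its level in near-empty droplets. After the subtraction its difference was 0.51 (adjusted p = 0.049).

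The angiopoietins moved apart. Angpt1, which stabilises vessels, stood at 124 and 134.1 against 275 and 299 CPM (1.16, SE 0.17, edgeR adjusted p = 0.00087). Angpt2, which opposes it, stood at 23.8 and 27.4 against 4.88 and 3.25 CPM (-2.56, SE 0.40, edgeR adjusted p = 0.0014). Both passed in all 8 fits with 1 library left out and after free RNA was subtracted. Wnt2, a ligand of the Wnt pathway, stood at 13.2 and 15.2 against 4.52 and 3.61 CPM (-1.73, SE 0.33, edgeR adjusted p = 0.0035). Among the genes named by fold were Fam227b, at 121 and 134.1 against 7.44 and 5.41 CPM (-4.24), and Tll2, a procollagen-cleaving protease, at 7.70 and 6.10 against 55.8 and 157 CPM (3.83). Tll2 lost its call without rep128 (edgeR adjusted p = 0.10) or rep129 (0.053).

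Tert and Cdkn1a were both lower in progenitor-like nuclei of TertCi HFD. Tert rested on 133 and 16 UMIs in mCherry HFD and 20 and 8 in TertCi HFD. These were 9.85 and 8.13 against 2.44 and 2.89 CPM (-1.82, SE 0.42, edgeR adjusted p = 0.0094; 0.18 without rep128 and 0.12 without rep138). Cdkn1a rested on 90 and 7 against 8 and 3 UMIs, or 6.66 and 3.56 against 0.976 and 1.08 CPM (-2.45, SE 0.66, edgeR adjusted p = 0.020). It stood at 0.21 of its level in near-empty droplets and lost its call without rep128 (adjusted p = 0.38), rep138 (0.17) or rep140 (0.077). DESeq2 called neither gene.

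Macrophage genes also gave UMIs in progenitor-like nuclei. Of 29 lipid-associated macrophage genes, 21 fell there, and 1 of 22 fell after free RNA was subtracted, when 4.48% of all genes tested rose and 8.12% fell. Gpnmb stood at 123 and 143 against 47.0 and 36.1 CPM, 0.12 of its level in near-empty droplets; its difference went from -1.65 to -0.02. Within cluster 0 alone (1249 and 313 nuclei against 1815 and 657), a fit added after the data were seen, 2886 of 12489 genes (23.1%) changed, 8.66% up and 14.4% down. Of 29 genes of the collagen and matrix list 13 fell and 3 rose there (median -0.69 against -0.05 over all genes tested). Each progenitor gene named above kept its direction and its side of the threshold in that cluster.

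Adipocyte-like nuclei were few in mCherry HFD, 109 and 30 with median UMIs of 10828 and 4712, against 2030 and 532 with medians of 4282 and 3789 in TertCi HFD. The adipocyte markers summed to 22289 to 26272 plain CPM in them in mCherry HFD and 24383 to 28294 in TertCi HFD. Macrophage RNA moved with the group there: the macrophage markers summed to 1474 to 1673 against 1053 to 1216 plain CPM. Of 28 lipid-associated macrophage genes 10 fell, or 2 of 24 after free RNA was subtracted. In these nuclei 1029 of 13313 genes (7.73%) changed, 419 up (3.15%) and 610 down (4.58%). Without rep128 the number was 5, and without rep129, rep138 or rep140 it was 241, 196 or 533. With library totals 94 rose and 913 fell, and after free RNA was subtracted 2.04% of the genes tested rose and 2.15% fell. Of the 14 adipocyte markers tested, 1 passed, and it was Adrb3.

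Adrb3 stood at 159 and 110 against 628 and 753 CPM (2.29, SE 0.24, edgeR adjusted p = 0.0014) and passed in all 8 fits with 1 library left out. Both TertCi libraries were several-fold above both mCherry libraries. Taco1 had the largest rise by fold among the genes named here, at 98.8 and 211 against 2353 and 4120 CPM (4.52, SE 1.03, edgeR adjusted p = 0.044). It lost its call without rep128 (adjusted p = 0.30), rep129 (0.14), rep138 (0.26), rep140 (0.31), rep144 (0.18) or rep146 (0.18), and after free RNA was subtracted (0.072). Ghr, Cidec and Nrg4, which rose in the whole tissue, did not pass here. Ghr stood at 10749 and 10374 against 19719 and 15887 CPM (0.75, SE 0.26, edgeR adjusted p = 0.097), Cidec at 1292 and 835 against 2098 and 1642 CPM (0.80, SE 0.27, edgeR adjusted p = 0.092) and Nrg4 at 599 and 381 against 727 and 953 CPM (0.75, SE 0.26, edgeR adjusted p = 0.092). Pparg, the master regulator of adipocyte formation, stood at 1759 and 1325 against 1572 and 3338 CPM, with overlapping groups. The difference between the whole-tissue rise and that within adipocyte-like nuclei was not tested.

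Of 20 adipogenic transcription factors, 6 rose and 0 fell in adipocyte-like nuclei (median 0.70 against 0.03 over all genes tested), and 0 rose with library totals. With rep128, rep129, rep138 or rep140 left out in turn, 0, 2, 2 or 4 rose. Ebf1 stood at 3093 and 3430 against 7440 and 5892 CPM (1.03, SE 0.23, edgeR adjusted p = 0.021), Rora at 1269 and 1261 against 2620 and 2500 CPM (1.02, SE 0.21, edgeR adjusted p = 0.017) and Nfia at 833 and 1156 against 2102 and 2669 CPM (1.27, SE 0.24, edgeR adjusted p = 0.014). In each the TertCi libraries were the higher pair. Ebf1 and Rora lost their calls without rep128 (adjusted p = 0.16 and 0.13), rep129 (0.077 and 0.075) or rep138 (0.11 and 0.060), and Nfia without rep128 (0.14). Other risen genes were Slit3, a guidance ligand, at 527 and 683 against 3654 and 2265 CPM, and Slc27a1, a fatty acid transporter, at 185 and 193 against 561 and 415 CPM. Slit3 lost its call without rep128 (edgeR adjusted p = 0.074), and Slc27a1 without rep128 (0.13) or rep129 (0.050).

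Of 20 triglyceride and droplet genes in adipocyte-like nuclei, 1 rose and 2 fell, near the shares over all genes (3.15% and 4.58%), and the median of 0.11 turned to -0.32 with library totals. G0s2, an inhibitor of the triglyceride lipase ATGL, stood at 431 and 280 against 104 and 146.5 CPM (-1.55, SE 0.25, edgeR adjusted p = 0.0079; 0.15 without rep128 and 0.055 without rep138). Plin2 stood at 280 and 248 against 61.7 and 108 CPM (-1.67, SE 0.26, edgeR adjusted p = 0.0067; 0.12 without rep128), at 0.34 of its level in near-empty droplets. Both genes were lower in both TertCi libraries. Nhs, an actin regulator, stood at 225 and 289 against 23.8 and 15.8 CPM (-3.62, SE 0.33, edgeR adjusted p = 0.0013) and passed in all 8 fits. Gnal, a G-protein subunit that couples receptors to adenylyl cyclase, stood at 96.2 and 105 against 2.86 and 6.60 CPM (-4.62, SE 0.55, edgeR adjusted p = 0.0031; 0.086 without rep128).

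In endothelial-like nuclei, 976 of 9025 genes (10.8%) changed, 247 up (2.74%) and 729 down (8.08%), and 0 of 12 endothelial markers passed. After free RNA was subtracted, 103 of 7840 genes changed, 9 up (0.115%) and 94 down (1.20%). Lipid-associated macrophage genes made up part of the falls, 22 of 28, or 5 of 25 after the subtraction. Gpnmb stood at 610 and 741 against 70.2 and 44.0 CPM in these nuclei. The macrophage markers summed to 3185 to 4946 plain CPM in endothelial-like nuclei of mCherry HFD and to 1431 to 1909 in TertCi HFD, so the fall of macrophage genes moved with macrophage RNA in this class.

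The genotype difference itself was compared between classes in a joint fit. Between macrophage-like and progenitor-like nuclei it differed in 1026 of 16050 genes (6.39%), towards macrophage-like nuclei in 4.65% and away from them in 1.74%. Between adipocyte-like and progenitor-like nuclei it differed in 412 of 15459 (2.67%), upwards in 1.36% and downwards in 1.3%. Between adipocyte-like and macrophage-like nuclei it differed in 775 of 15273 (5.07%), upwards in 2.24% and downwards in 2.84%. The genotype difference of F13a1 was higher in macrophage-like than in progenitor-like nuclei (by 1.29). So were those of Mrc1 (1.16) and Maf (1.35), which did not pass in progenitor-like nuclei (-0.35 and -0.38). Col3a1 differed by -1.26 in the same comparison, a larger fall in macrophage-like than in progenitor-like nuclei, and C4b by 2.52. Free RNA, which holds progenitor and macrophage genes, was not subtracted in the joint fit. The progenitor markers in near-empty droplets summed to 5613 to 5706 plain CPM in mCherry HFD and to 2993 to 3127 in TertCi HFD. The part of free RNA in the differences between classes was not tested. Lpl differed by 1.38 between adipocyte-like and macrophage-like nuclei. The 2 telomerase constructs were not told apart on the high-fat diet: between TertCi HFD and Tert HFD, edgeR called 0 genes in the whole tissue and in the 4 classes. Without adjustment, 1364 of 22678 genes of the whole tissue had an edgeR p under 0.05. The counts were 542 of 13313 in adipocyte-like, 690 of 14475 in progenitor-like, 657 of 14425 in macrophage-like and 274 of 9025 in endothelial-like nuclei. Where no gene differs, a share of about 0.05 is expected to lie under that limit. The 4 class counts were below that share, and the whole-tissue count was above it. A count of 0 does not show that the constructs act alike.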

How the data were processed

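Visceral fat nuclei of 8 mice were profiled by droplet RNA sequencing, and 4 libraries are compared here. The authors deposited unnormalised UMI counts per feature and barcode (56749 features), made with Cell Ranger 7.1.0 per the file headers; the submitters' processing notes name Cell Ranger 5.0.1, bcl2fastq 2.20.0 and mm39. Per the labels' protocols, tissue was handled in randomised batches of 2; which mice shared a batch is not recorded, so batch could not be modelled and a batch that coincides with a group cannot be told apart from it. Replicates differed by more than sampling noise (chi-square per degree of freedom 21.3 in mCherry HFD and 38.1 in TertCi HFD).

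Barcodes with at least 1000 UMIs and at most 5% mitochondrial UMIs were kept: 45402 in the 4 libraries, of 77990 in the series. For classes, scrublet's automatic threshold marked 15.6% of rep138 and at most 0.0220% of each other library, so the highest doublet scores were removed at 0.8% per 1000 barcodes, to at most 8%. Counts scaled to 10000 were reduced with scanpy 1.11.5 (2000 variable genes, 30 components, 15 neighbours, Leiden resolution 1.0, seed 1) to 37 clusters. A cluster was named by at least 3 raised markers of its class and none was named where 2 unrelated classes competed. Macrophage with monocyte or dendritic, endothelial with lymphatic endothelial, and T or NK with B lineage counted as related, as did cycling with any class. Cluster 12 was thus named monocyte or dendritic (score 2.51, 5 markers raised) beside macrophage (2.01, 11 raised) and was not counted as macrophage-like. In all, 2 clusters stayed unnamed, 6 were mixed and 7 came mostly from 1 library. UMI sums per library, whole or by class (at least 20 nuclei), were tested with edgeR 4.0.16 (R 4.3.3): TMM, filterByExpr, glmQLFit and glmQLFTest over all 8 libraries, Benjamini-Hochberg at 0.05. Class shares were tested on numbers of nuclei in the same way, without TMM. Free RNA was estimated from barcodes with 100 to 300 UMIs and scaled by 8 adipocyte or 6 macrophage markers of other classes. As alternatives, DESeq2 1.42.0, library totals, other filters and the leaving out of each library were run.

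On simulated data with the libraries' means and sizes, 76.1% of 8-fold changes were recovered in the whole tissue (22678 genes); in the adipocyte-like, progenitor-like, macrophage-like and endothelial-like classes the shares were 82.1%, 92.5%, 94.0% and 89.6%. For 2-fold changes the 5 shares were 13.6%, 15.2%, 39.4%, 36.4% and 16.7%. Far fewer genes were changed in the simulation than were called in the data, so these shares do not give the sensitivity of the tests above. Named genes are Cdkn1a, Tert and mCherry; the genes with the largest changes in each direction at a mean of at least 20 CPM and at least 10 UMIs per library, with groups that did not overlap; and, in each of 26 lists (533 genes), the most abundant members that passed and that did not. The comparison, the lists and the markers were chosen with earlier results of these data known. Trem2, Ctsl and Lyve1 in macrophage-like nuclei and Rn18s-rs5 fall outside this rule and were chosen after their values were seen. No sequence is printed, since none carries a result.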

Additional observations from a re-analysis of the deposited data

Results flagged for a closer look

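The genotype difference (TertCi HFD minus mCherry HFD, log2) of the following named genes differed between classes in edgeR's joint fit (adjusted p under 0.05); each value is the difference between the 2 classes' differences. The causes were not tested, and macrophage and adipocyte RNA is present in the free RNA of all libraries. Progenitor RNA is present in that of the libraries compared, and free RNA was not subtracted in this fit.

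Between macrophage-like and progenitor-like nuclei, the perivascular genes F13a1 (1.29), Mrc1 (1.16), Maf (1.35), Lyve1 (2.70), Selenop (0.85) and Igf1 (1.17) differed towards macrophage-like nuclei. So did Mmp12 (1.55), the elastase of macrophages, Nfia (0.88), C4b (2.52), Wnt2 (3.08) and Trem2 (2.26). Trem2 fell in macrophage-like nuclei, so its positive value means that it fell further in progenitor-like nuclei. Values were negative for Col3a1 (-1.26), Col4a4 (-1.39), C3 (-1.54), Ccr2 (-0.97), Lpl (-0.75) and Dkc1 (-1.14), which encodes the telomerase-associated protein dyskerin.

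Between adipocyte-like and progenitor-like nuclei, values were positive for the guidance ligand Slit3 (2.21), the scaffold Ank2 (1.25), C1s1 (1.153), C4b (1.75), Nfia (0.92) and Tert (4.59). Tert rested on 1 and 0 UMIs in adipocyte-like nuclei of mCherry HFD against 37 and 8 in TertCi HFD. Values were negative for Angpt1 (-1.67), Cidec (-1.94), Col4a3 (-3.57), Col4a4 (-3.02), Gnal (-3.44), Nhs (-3.45) and Nrg4 (-2.39). Cidec and Nrg4 thus differed less between the groups in adipocyte-like nuclei, where they are made, than in progenitor-like nuclei.

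Between adipocyte-like and macrophage-like nuclei, Lpl (1.38), Sesn1 (1.10), a stress-responsive regulator of nutrient signalling, and Slc27a1 (1.48) differed towards adipocyte-like nuclei. The others were lower there: Cidec (-1.45), Nrg4 (-2.01), Trhde (-3.06), Ebf1 (-1.07), Prkar2b (-1.80), Pde4d (-1.27), Gnal (-4.09), Nhs (-4.46), Colec12 (-1.39), Mmp12 (-1.64), Mrc1 (-1.27), Lyve1 (-3.54), Selenop (-1.08) and Igf1 (-1.21). Adipocyte-like nuclei of mCherry HFD numbered 109 and 30, so each of these values rests on few nuclei in that group.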

How the results depend on the processing

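No paired analysis was possible because the replicate numbers differ between the groups. With 1 library left out, the number of changed genes ran from 1681 to 8101 in the whole tissue, 5 to 1761 in adipocyte-like, 651 to 3934 in progenitor-like, 1664 to 5390 in macrophage-like and 269 to 1406 in endothelial-like nuclei. For differences between classes it ran from 322 to 1588 (macrophage minus progenitor), 72 to 890 (adipocyte minus progenitor) and 404 to 1289 (adipocyte minus macrophage). Of the class shares 0 to 7 passed; their differences ran from 4.17 to 4.69 (adipocyte-like), -1.59 to -1.19 (macrophage-like), 0.79 to 1.09 (progenitor-like), -2.64 to -1.50 (cycling) and 3.88 to 4.43 (unnamed), each of 1 sign. The cause of these moves was not tested; where an arm keeps 1 library, that library is assumed to vary like the other groups.

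The whole-tissue count stayed within 1.5 times of 7215 under each alternative that kept all 4 libraries. With only the 4 libraries compared, the counts were 1659 (adipocyte-like), 5054 (progenitor-like) and 1660 (endothelial-like), and 630 and 1230 for adipocyte minus progenitor and minus macrophage. DESeq2 gave 1785 in progenitor-like, 2664 in macrophage-like and 404 in endothelial-like nuclei. After free RNA was subtracted there were 531 in adipocyte-like, 1693 in progenitor-like and 103 in endothelial-like nuclei; without a filter on low counts there were 2305 and 1651 in the adipocyte-like and endothelial-like classes. The adipocyte-like count was 2701 with cluster 16 added, the macrophage-like count 2626 in cluster 1 and 293 in cluster 3, and the endothelial-like count 326 at 2000 UMIs. At 2000 UMIs 2 class shares passed, and macrophage-like (-1.70), progenitor-like (0.71) and cycling (-2.13) shares did not; with TMM across classes the progenitor-like share was 0.45 and did not pass. Median composition parts of 42.2% and 12.0% became 52.4% and 17.6% by cluster. With library totals the share of fallen genes among those called went from 57.1% to 79.7% in the whole tissue, 59.3% to 90.7% in adipocyte-like, 65.8% to 84.6% in progenitor-like, 59.1% to 73.8% in macrophage-like and 74.7% to 84.5% in endothelial-like nuclei.

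Of 1910 values of 89 named genes under alternatives, 1713 kept direction and side of the threshold, 152 lost it, 29 gained it and 16 changed sign. Tert in the whole tissue was 0.0031 at 2000 UMIs and ran from -0.26 to 0.0060 with 1 library left out, turning without rep129. In cluster 1 the signs turned for Colec12 (-0.18), Cd36 (0.073), Mmp12 (0.64, edgeR adjusted p = 0.0037), Mrc1 (-0.33), Maf (-0.33), Cd163 (-0.0026), Lyve1 (-0.49), Selenop (-1.35) and Igf1 (-0.42), and in cluster 3 for St18 (0.17), Cd36 (0.42), F13a1 (-0.041), Mrc1 (-0.20) and Lyve1 (-0.18). Depth limits adipocyte-like nuclei, with 30 nuclei in rep129, and Tert and Cdkn1a, with under 20 UMIs in some libraries of a class.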

Other observations

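Of 32 nuclear genes of the respiratory chain, 12 fell and 1 rose in the whole tissue (median -0.50 against -0.12 over all genes tested), beside 18.2% and 13.6% of all genes. In macrophage-like nuclei 13 of 31 fell, beside 17.9% of all genes, and 8 of 31 fell in progenitor-like nuclei, beside 13.9%. After free RNA was subtracted 4 of 30 fell in macrophage-like nuclei (12.8% of all genes), 2 of 28 in progenitor-like nuclei (8.12%) and 0 of 20 in endothelial-like nuclei (1.2%), so these counts were then near or below the share over all genes. In adipocyte-like nuclei 5 of 31 fell, beside 4.58% of all genes, and 2 of 30 after the subtraction, beside 2.15%. Cox7c, a subunit of cytochrome oxidase, stood at 53.2 and 45.5 against 18.1 and 12.9 CPM in the whole tissue (-1.67, SE 0.25, edgeR adjusted p = 0.0041). Vessel genes were split there: of 21 angiogenesis genes 8 rose and 2 fell (median 0.77). With library totals 5 rose and 2 fell (median 0.35). Endothelial markers also moved with the group in the whole tissue, where 8 of 12 rose, and their part in this count was not tested. Vegfa, the main vessel growth factor, stood at 40.8 and 39.0 against 210 and 273 CPM (2.60, SE 0.33, edgeR adjusted p = 0.0022), while Angpt2 stood at 43.3 and 41.7 against 10.5 and 6.43 CPM. Angpt2 lost its whole-tissue call without rep128 (adjusted p = 0.081), rep129 (0.061), rep138 (0.077) or rep140 (0.14).

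Of 30 p53 targets and DNA damage genes, 6 rose and 4 fell in the whole tissue (median -0.10). This is close to the share over all genes, of which 13.6% rose and 18.2% fell, and with library totals 3 rose and 9 fell (median -0.53). The death receptor gene Fas stood at 23.7 and 26.9 against 82.0 and 74.7 CPM (1.63, SE 0.21, edgeR adjusted p = 0.0023). The kinase gene Plk2 stood at 49.5 and 44.8 against 7.99 and 9.84 CPM (-2.41, SE 0.29, edgeR adjusted p = 0.0017), and Gadd45b at 10.9 and 9.63 against 1.67 and 1.90 CPM (-2.53, SE 0.28, edgeR adjusted p = 0.0013). Of 21 genes of senescence-associated secretion 11 fell and 1 rose (median -1.27), and of 8 inhibitors of cyclin-dependent kinases 1 fell and 0 rose. Of 17 telomerase and shelterin genes 4 fell and 1 rose; Dkc1 stood at 25.3 and 24.1 against 7.72 and 8.16 CPM in the whole tissue and at 36.4 and 37.1 against 8.79 and 6.39 CPM in macrophage-like nuclei (-2.22, SE 0.33, edgeR adjusted p = 0.00059). Of 23 interferon-stimulated genes 1 rose and 2 fell in the whole tissue. Of 9 MHC class II genes 0 rose and 2 fell there, while 5 fell with library totals and 4 with DESeq2.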
